A study of Mus musculus with 12 samples.

Results

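The cytochromes P450 of families 1 to 3, without the Cyp2a and Cyp2b genes, were followed in mouse hepatocytes after infection with a hairpin RNA against TLS and in the absence of the coactivator PGC-1alpha. The set was chosen by name and holds 31 genes: 2 of subfamily 1a, 1 of 1b, 11 of 2c, 4 of 2d, 2 of 2j, 6 of 3a, and Cyp2e1, Cyp2f2, Cyp2r1, Cyp2s1 and Cyp2u1. A probe was matched through its RefSeq accession for 29 of them, and none was matched for Cyp2c50 and Cyp2c65. Of these, 27 passed the filter on low signal and were tested among 19018 genes in all. Cyp1b1 and Cyp2c38 did not pass, since each was well above background on 1 of 12 arrays. Cyp2c44 is listed as Cyp2c23 in the reference annotation.

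P450 enzymes are haem proteins of the endoplasmic reticulum that insert an oxygen atom into drugs, steroids, fatty acids and other lipophilic compounds. They take electrons from the reductase encoded by Por. In liver, family 1 is known as a target of the aryl hydrocarbon receptor. The Cyp2c and Cyp3a enzymes are known as targets of the xenobiotic receptors encoded by Nr1i2 (PXR) and Nr1i3 (CAR) and of liver-enriched factors such as HNF4alpha. Levels of many of these genes are known to decline when hepatocytes are placed in culture.

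The cells were primary hepatocytes from C57BL/6 mice, either PGC-1alpha+/+ or PGC-1alpha-/-, plated on collagen in Williams E medium with 10% serum, 100 nM dexamethasone and 100 nM insulin. They were infected overnight at a multiplicity of 5 with an adenovirus that encoded a control hairpin RNA (control) or a hairpin RNA against TLS (shTLS), and were harvested 24 h after infection. All groups therefore carried an adenovirus and received dexamethasone and insulin, and no group was left uninfected. There were 3 mice per genotype, and each gave 1 control and 1 shTLS culture, which makes 4 groups of 3 arrays. The source names give the mouse and an independent assay number, and the 4 arrays of a number shared 1 of 3 slides. Every group sat at a fixed position of the slide, and effects of position and group therefore cannot be told apart. All values are log2 of the quantile-normalized array signal. They compare 1 probe between arrays and do not rank genes by abundance. In RNA of a whole culture, fewer cells of a type and less RNA per cell cannot be told apart.

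The probe of Ppargc1a, which encodes PGC-1alpha, was at 9.21 ± 1.09 (SD, n = 3) in +/+ control and 9.38 ± 0.33 in -/- control cultures. It therefore did not separate the genotypes, and whether it lies in the deleted part is not given in the sources used here. Between 22706 and 26680 of 41174 probes were well above background per array. Raw signals were brighter with the control hairpin, with a 75th percentile between 810.4 and 1064.3, than with shTLS, where it lay between 343.5 and 634.6. Of 15 hepatocyte markers 14 were tested, albumin among them, and their mean was 13.85 on the array of +/+ control 1, 13.07 on -/- control 1, 11.92 on -/- shTLS 1 and between 12.33 and 12.71 on the others.

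Arrays of replicate number 1 often stood at an end of a P450 member's values, though not always at both ends of the same member. The array of +/+ control 1 was the highest of all 12 for 17 of 27 members, whereas 13.3% of all genes had their highest value there. The array of -/- shTLS 1 was the lowest for 18 of 27 members, against 4.81% of all genes. The median range of a member over the 12 arrays was 3.78 log2 units, against 1.83 for all genes. The mean of the hepatocyte markers, a list without any P450, was highest and lowest on the same 2 arrays, and its part in the P450 values was not tested.

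**Figure D1:**
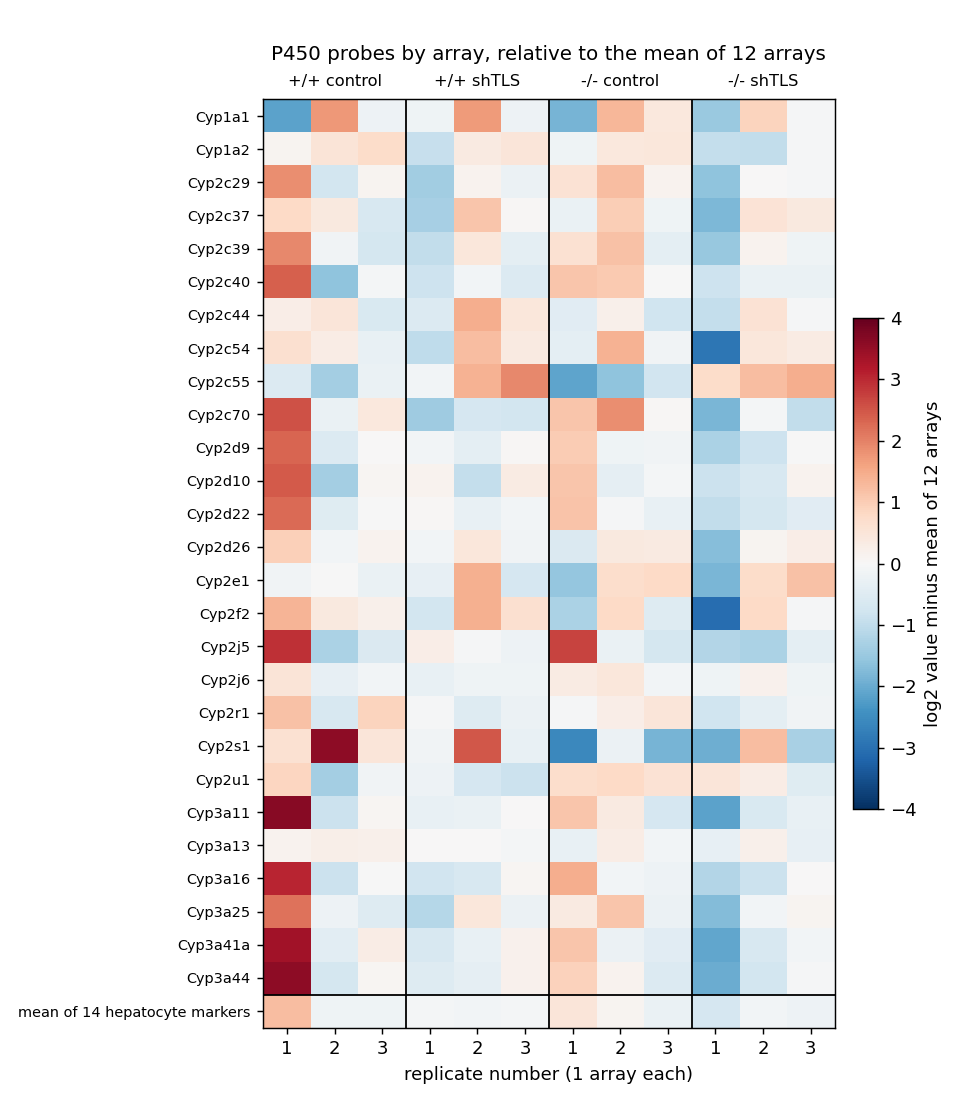
Log2 value of each of 27 tested P450 members (rows) on each of 12 arrays (columns, by group and replicate number), as the difference from the member's mean over all arrays, with the mean of 14 hepatocyte markers in the lowest row. The column of +/+ control 1 is the highest for 17 members and that of -/- shTLS 1 the lowest for 18, not all of them the same members. Cyp1a1, Cyp2c55 and Cyp2s1 are among those with neither.

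In family 1, Cyp1a1, which oxidizes polycyclic aromatic hydrocarbons, went with the replicate number and not with hairpin or genotype. It read 6.75, 10.63 and 8.69 in +/+ control cultures 1 to 3 and 8.72, 10.58 and 8.67 in the matching shTLS cultures. In -/- mice it read 7.02, 10.22 and 9.32 with the control and 7.41, 9.78 and 8.83 with shTLS. All 4 arrays of number 2 were thus above the 8 others, in both genotypes and with both vectors. The replicate number held 84.0% of the sum of squares of Cyp1a1, against a median of 33.2% over all genes. Its shTLS difference was 0.63 ± 1.08 (SE) in +/+ cells and -0.18 ± 1.08 in -/- cells, with adjusted p of 0.798 and 0.958 (limma, Benjamini-Hochberg).

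Cyp1a2, the caffeine and arylamine oxidase of hepatocytes, was lower in the shTLS than in the control culture of all 6 mice, though the averaged difference was not called. The values in +/+ cells were 5.80, 6.20 and 6.42 with the control and 4.77, 6.05 and 6.17 with shTLS. In -/- cells they were 5.54, 6.11 and 6.13 with the control and 4.75, 4.71 and 5.65 with shTLS. The groups overlapped in both genotypes, but each shTLS culture was below the control culture of its own mouse. Averaged over both genotypes the difference was -0.68 ± 0.29 (SE), with an adjusted p of 0.157 in limma and of 0.0264 when the replicate number was taken as a block. Another Cyp1a2 probe had group means of 5.56, 5.16, 5.40 and 4.39 in the order +/+ control, +/+ shTLS, -/- control and -/- shTLS, which is the same order as for the probe above. Cyp1b1, mostly an extrahepatic enzyme, read between 1.39 and 4.17 and was well above background only in 1 of the -/- control cultures.

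The window before the Cyp1a1 start is shown because it holds the core letters of the xenobiotic response element, which the aryl hydrocarbon receptor is known to bind. Whether this copy takes part in a response to the receptor was not tested. The sequence is from RefSeq (GRCm38.p6, + strand, chr9:57697543-57697612) and covers positions -70 to -1 relative to the annotated start. Capitals mark GCGTG, the core of the xenobiotic response element, and TATAAA, the TATA box.
Cyp1a1: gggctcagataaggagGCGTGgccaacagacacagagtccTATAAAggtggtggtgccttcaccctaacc
Within the 250 bases before the start, GCGTG was found on either strand in Cyp1a1 and Cyp1b1 only, that is in 2 of 27 members with a window, against 28.2% of 32851 windows of all genes. TATAAA was found in 16 of the 27 windows, against 12.4% of all windows. The 27 windows include members that were not tested, and no window was found for Cyp2c44, Cyp2c54, Cyp2d22 and Cyp2u1.

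In subfamily 2c, Cyp2c55 rose with shTLS and was the one member called higher. Cyp2c55 hydroxylates arachidonic acid and is known as an inducible target of CAR and PXR. In +/+ cells it read 4.91, 4.10 and 5.19 with the control and 5.34, 6.84 and 7.38 with shTLS. In -/- cells it read 3.35, 3.85 and 4.68 with the control and 6.19, 6.69 and 6.92 with shTLS. Every shTLS array was above every control array of its genotype, and the shTLS culture was the higher one in all 6 mice. The probe was dim, being well above background in 2 of 3 cultures of each control group and in 3 of 3 of each shTLS group. It thus entered the test through the shTLS groups, where it is high, and with no filter on background the averaged difference had an adjusted p of 0.0186 (limma) and that in -/- cells one of 0.100. The difference was 1.79 ± 0.53 in +/+ cells (adjusted p = 0.150, limma) and 2.64 ± 0.53 in -/- cells (adjusted p = 0.0473). Averaged over both genotypes it was 2.21 ± 0.38 (95% interval 1.38 to 3.05), with an adjusted p of 0.00708. With the replicate number as a block the difference in +/+ cells passed as well, at an adjusted p of 0.0201.

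The size of the Cyp2c55 rise depended on the background correction, since normexp in place of the scanner's own subtraction gave 0.69 for the average (adjusted p = 0.0440) and 0.78 in -/- cells (adjusted p = 0.285). The averaged call held without any 1 of the 12 arrays (adjusted p = 0.00153 to 0.0241), but was lost without the 4 arrays of number 2 (1.93, adjusted p = 0.166) or of number 3 (2.21, adjusted p = 0.0525). In -/- cells alone the call was lost without +/+ control 1, 2 or 3 (adjusted p = 0.0657, 0.0502 and 0.0662) and without +/+ shTLS 2 (0.0716). It was also lost without -/- control 1 or 2 (0.224 and 0.179) and without -/- shTLS 1, 2 or 3 (0.0701, 0.203 and 0.204). In +/+ cells the difference passed without +/+ shTLS 1, at 2.38 and an adjusted p of 0.0375.

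The Cyp2c55 promoter is shown whole because this member departed from the rest of its subfamily. The window is chr19:39006769-39007018 (GRCm38.p6, + strand, RefSeq), positions -250 to -1, with TATAAA in capitals.
Cyp2c55: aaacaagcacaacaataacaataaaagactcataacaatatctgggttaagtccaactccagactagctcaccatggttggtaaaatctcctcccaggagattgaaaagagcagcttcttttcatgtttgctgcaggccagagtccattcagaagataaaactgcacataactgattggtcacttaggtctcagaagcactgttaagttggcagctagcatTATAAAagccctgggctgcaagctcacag
Of the other letters searched, none was in this window: CAAAGTCCA (HNF4), GTTAAT (HNF1), TTGCNNAA (C/EBP), AGTTCA (nuclear receptors) and GCGTG. That was not particular to Cyp2c55, since the windows searched for Cyp2c29, Cyp2c38 and Cyp2c39 held none of them either.

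Cyp2c70, which makes the muricholic acids of mouse bile from chenodeoxycholic acid, fell with shTLS. It read 15.67, 12.86 and 13.54 in +/+ control cultures and 11.72, 12.47 and 12.39 in +/+ shTLS cultures. In -/- mice it read 14.23, 14.99 and 13.19 with the control and 11.32, 13.06 and 12.15 with shTLS. The 2 groups did not overlap in either genotype, and all 6 mice showed the fall. The difference was -1.83 ± 0.72 in +/+ cells (adjusted p = 0.248, limma) and -1.96 ± 0.72 in -/- cells (adjusted p = 0.308). Averaged over genotypes the level fell by 1.90 on the log2 scale (SE 0.51, 95% interval -3.02 to -0.77), or was 3.72-fold lower, with an adjusted p of 0.0456.

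That call stood near the threshold. It remained without +/+ control 2 (adjusted p = 0.0278) or -/- control 3 (0.0337). It was lost without +/+ control 1 or 3 (0.0705 and 0.0519), +/+ shTLS 1, 2 or 3 (0.0775, 0.0698 and 0.0920), -/- control 1 or 2 (0.103 and 0.110) and -/- shTLS 1, 2 or 3 (0.0751, 0.0564 and 0.0975). Without the 4 arrays of number 1 the difference was -1.13 (adjusted p = 0.243).

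The 6 other tested Cyp2c members (Cyp2c29, Cyp2c37, Cyp2c39, Cyp2c40, Cyp2c44 and Cyp2c54) are mostly epoxygenases of arachidonic acid, and none was called. For 5 of the 6, the averaged shTLS difference was negative, the exception being Cyp2c44. The sign differed between mice: in number 1 the median of all 8 Cyp2c members was -2.51 in +/+ and -2.03 in -/- mice, while in +/+ mouse 2 it was 0.91. Both probes of Cyp2c38 were above background only in +/+ control 1, with 5.87 and 4.12 there and at most 2.36 and 1.44 on the other arrays.

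The window of Cyp2c70 is shown because this was the 1 member called lower in the averaged shTLS fit without a block. The window also holds the letters CAAAGTCCA, known as a binding site of HNF4alpha. It covers positions -70 to -1 (chr19:40187287-40187356, GRCm38.p6, - strand, RefSeq), and capitals mark CAAAGTCCA and the TATA letters on the other strand.
Cyp2c70: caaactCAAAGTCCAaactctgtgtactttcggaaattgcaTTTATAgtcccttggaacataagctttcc
On either strand of the 250 bases before the start, CAAAGTCCA was in 6 of 27 members with a window, against 0.384% of 32851 windows. Those members were Cyp2c40, Cyp2c65, Cyp2c70, Cyp3a11, Cyp3a16 and Cyp3a41a. Cyp2c65 had no probe here, so 5 of the 6 were measured, and Cyp2c70 was the only one called in the shTLS comparisons with or without the replicate block.

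In subfamily 3a, the probes of Cyp3a11, Cyp3a16, Cyp3a25, Cyp3a41a and Cyp3a44 shared 1 profile and Cyp3a13 had another. Cyp3a11 is a main drug-metabolizing P450 of mouse liver, Cyp3a16 is known from fetal liver, and Cyp3a41a and Cyp3a44 are known for a female bias in adults. Cyp3a11 read 13.79, 9.27 and 10.21 in +/+ control, 9.83, 9.88 and 10.14 in +/+ shTLS, 11.24, 10.50 and 9.46 in -/- control, and 8.01, 9.53 and 9.83 in -/- shTLS cultures. The array of +/+ control 1 alone stood far above the others, and the other +/+ control values lay on either side of the +/+ shTLS values. The averaged shTLS differences of these 5 members were between -1.21 and -0.89, and none passed (adjusted p = 0.226 to 0.295, limma). By mouse, their median difference was -3.96, 0.34 and 0.08 in +/+ mice 1 to 3 and -2.92, -0.89 and 0.35 in -/- mice 1 to 3. The negative average was thus set by the mice of number 1 and, less so, by -/- mouse 2, while 5 of 5 members were positive in +/+ mouse 2 and in -/- mouse 3. Probes of such close paralogs can bind each other's RNA, which was not tested. Another Cyp3a44 probe did not share the profile, with group means between 7.77 and 8.11. The probe used had 10.01, 8.81, 9.21 and 8.11 in +/+ control, +/+ shTLS, -/- control and -/- shTLS cultures.

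Cyp3a13, a Cyp3a enzyme of liver and intestine, barely varied. It read 13.73, 13.83 and 13.81 in +/+ control, 13.61, 13.62 and 13.53 in +/+ shTLS, 13.31, 13.90 and 13.50 in -/- control, and 13.28, 13.81 and 13.28 in -/- shTLS cultures. Its range over 12 arrays was 0.62 log2 units, whereas that of Cyp3a11 was 5.78. The shTLS culture was the lower one in all 6 mice, with an averaged difference of -0.16 ± 0.17 (adjusted p = 0.568, limma).

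The promoters of 4 Cyp3a members are shown because 3 of them hold the HNF4 letters at nearly the same place and the 4th differs there by 1 base. All are on the - strand of GRCm38.p6 (RefSeq), positions -130 to -61, with CAAAGTCCA in capitals. Cyp3a11 is at chr5:145879915-145879984, Cyp3a16 at chr5:145469784-145469853, Cyp3a41a at chr5:145720197-145720266 and Cyp3a44 at chr5:145805935-145806004.
Cyp3a11: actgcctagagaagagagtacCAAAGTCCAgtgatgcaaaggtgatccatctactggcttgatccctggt
Cyp3a16: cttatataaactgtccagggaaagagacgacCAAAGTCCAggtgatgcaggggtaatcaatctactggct
Cyp3a41a: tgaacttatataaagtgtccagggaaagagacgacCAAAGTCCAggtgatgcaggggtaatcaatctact
Cyp3a44: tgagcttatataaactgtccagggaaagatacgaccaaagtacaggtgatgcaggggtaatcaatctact
The windows of Cyp3a41a and Cyp3a44 were the same at 94.4% of 250 positions, and within the motif they differed by C7A (counted from 1 at its 5′ end, Cyp3a41a first). In the probes used, Cyp3a41a read 14.62 and Cyp3a44 12.61 in +/+ control 1, the highest value of each, and 9.20 and 7.06 in -/- shTLS 1, the lowest of each. The other Cyp3a44 probe was highest in +/+ shTLS 3, at 9.57. Cyp3a13 and Cyp3a25 had no CAAAGTCCA in the window searched, which for Cyp3a25 was 1 of 2.

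Among the Cyp2d members, which oxidize amines and steroids, no call was made, and all 4 were negative for shTLS in both genotypes. Cyp2d26 read 12.56, 11.48 and 11.74 in +/+ control, 11.48, 12.07 and 11.46 in +/+ shTLS, 11.02, 11.98 and 11.96 in -/- control, and 9.91, 11.70 and 11.86 in -/- shTLS cultures. The lowest value was that of -/- shTLS 1, and the other values overlapped between all groups. Its averaged difference was -0.38 ± 0.37 (adjusted p = 0.525, limma). Cyp2d9, Cyp2d10 and Cyp2d22 had their highest value in +/+ control 1 and the next in -/- control 1. For the subfamily, the median shTLS difference by mouse was -2.26, 0.28 and -0.04 in +/+ mice and -2.06, -0.47 and 0.01 in -/- mice, in the order of the numbers.

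Cyp2e1, which oxidizes ethanol and acetone, did not go with the hairpin. It read 6.85, 6.97 and 6.71 in +/+ control, 6.67, 8.40 and 6.32 in +/+ shTLS, 5.44, 7.68 and 7.78 in -/- control, and 5.17, 7.73 and 8.16 in -/- shTLS cultures. Both -/- cultures of mouse 1 were below all others, and differences between mice held 89.2% of its sum of squares. Cyp2f2, which activates naphthalene, read 11.55, 10.60 and 10.41 in +/+ control, 9.46, 11.61 and 10.84 in +/+ shTLS, 8.95, 11.01 and 9.70 in -/- control, and 7.17, 11.01 and 10.18 in -/- shTLS cultures. Again the cultures of -/- mouse 1 were the lowest. The averaged shTLS differences were 0.17 ± 0.60 for Cyp2e1 and -0.33 ± 0.66 for Cyp2f2 (adjusted p = 0.878 and 0.774, limma).

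The Cyp2j enzymes epoxidize arachidonic acid. Cyp2j6 varied little, with 11.42, 10.60 and 10.82 in +/+ control, 10.63, 10.75 and 10.75 in +/+ shTLS, 11.26, 11.37 and 10.80 in -/- control, and 10.76, 11.08 and 10.75 in -/- shTLS cultures. Its averaged shTLS difference was -0.26 ± 0.19 (adjusted p = 0.399, limma). Cyp2j5 read 11.54 in +/+ control 1 and 11.31 in -/- control 1, and between 7.34 and 8.86 on the 10 other arrays. Cyp2r1, which hydroxylates vitamin D, and Cyp2u1, a fatty acid hydroxylase, were lower with shTLS in 5 of 6 mice each, +/+ mouse 2 being the exception. Their averaged differences were -0.72 ± 0.30 and -0.47 ± 0.34 (adjusted p = 0.151 and 0.388, limma). With the mouse as a block Cyp2r1 passed, at an adjusted p of 0.0321.

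Cyp2s1, an enzyme of epithelia outside the liver that is also known to respond to the aryl hydrocarbon receptor, was the member with the largest genotype difference. It read 11.41, 14.38 and 11.28 in +/+ control cultures and 8.23, 10.55 and 8.93 in -/- control cultures. With shTLS it read 10.67, 13.30 and 10.50 in +/+ and 8.84, 12.03 and 9.49 in -/- cultures. In both genotypes and with both vectors number 2 was the highest, and within each number the -/- culture was below the +/+ culture. The control groups did not overlap, and the shTLS groups did. In control cells the genotype difference was -3.12 ± 1.12, or 8.69-fold lower in -/- cells, with an adjusted p of 1.00 in limma and of 0.00320 with the replicate number as a block. Averaged over vectors it was -2.24 ± 0.81, with an adjusted p of 1.00 with the mouse as a random block and of 0.00166 with the replicate number as a block. The latter fit takes both cultures of a mouse as independent.

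The shTLS difference of Cyp2s1 had opposite signs in the genotypes. It was -0.74, -1.08 and -0.78 in +/+ mice 1 to 3 and 0.61, 1.48 and 0.56 in -/- mice 1 to 3. In +/+ cells its adjusted p was 0.724 in limma, 0.0807 with the replicate block and 0.0491 where each mouse was its own block. The difference between both effects was 1.75 ± 1.58 and did not pass, with an adjusted p of 1.00 in limma with or without the replicate block.

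**Figure D2:**
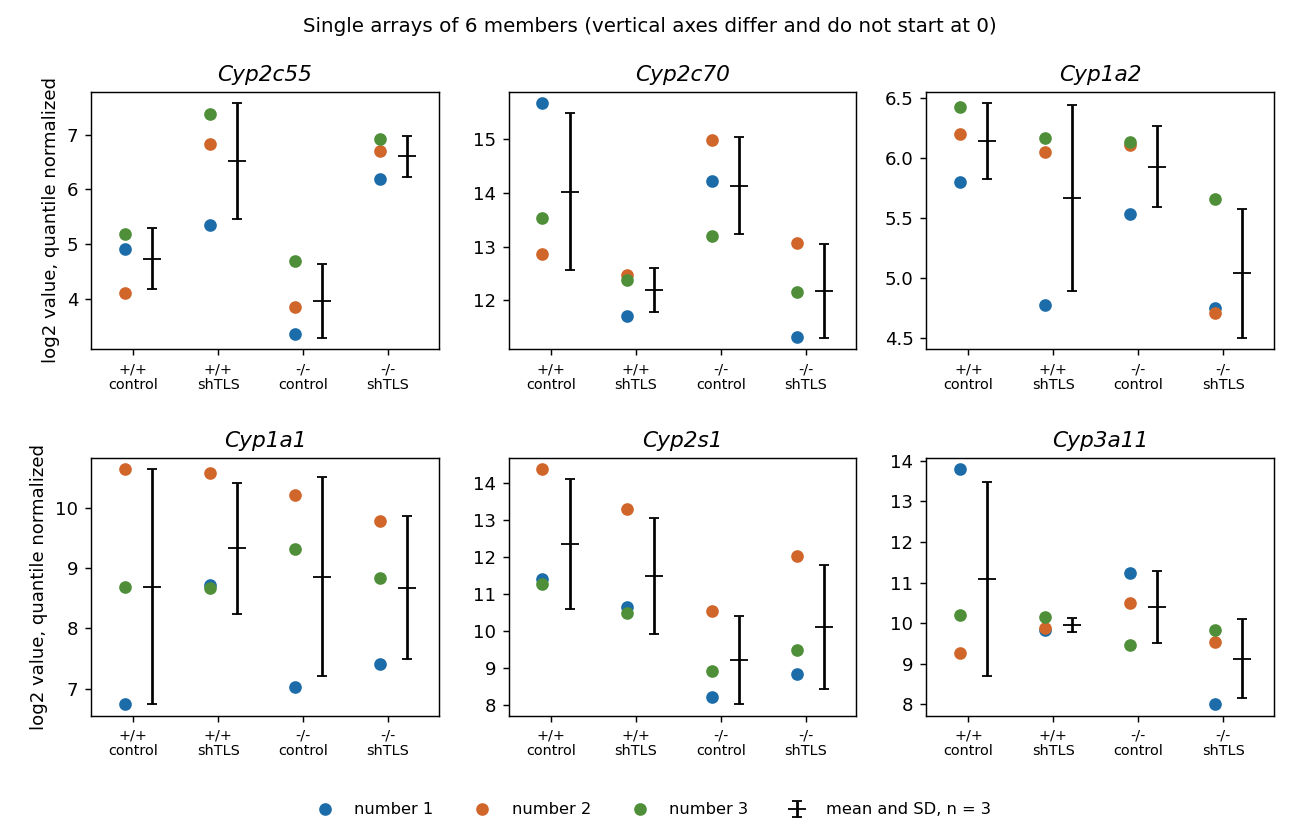
Log2 value (vertical axes, which differ and do not start at 0) of 6 P450 members in each of 12 cultures, by group, with replicate numbers in colour and the mean and SD of 3 arrays beside them. Cyp2c55 is higher and Cyp2c70 lower in all shTLS cultures than in control cultures of the same genotype, all number 2 arrays of Cyp1a1 lie above the others, and Cyp3a11 has 1 high array at 13.79.

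For the question of what the TLS hairpin did to the set as a whole, few members passed while most had a negative difference. In +/+ cells 0 of 27 members were called, against 1.24% of all genes. At an unadjusted p under 0.05 there were 2 (16.5% of all genes), and with the replicate block 1 (Cyp2c55, higher) against 12.7% of all genes. In -/- cells 1 member was called, Cyp2c55, against 0.994% of all genes called and 0.952% called higher. At an unadjusted p under 0.05 there were 2 (12.2% of all genes), and with the replicate block again 1, Cyp2c55, against 6.39%. Averaged over genotypes 2 were called, against 8.31% of all genes. Cyp2c55 was higher (5.17% of all genes) and Cyp2c70 lower (3.13%), and 4 members had an unadjusted p under 0.05 (28.2% of all genes). With the replicate block there were 3, Cyp1a2 being added as lower, against 29.1% of all genes. The single call in -/- cells rests on 1 gene, and the count in the average was close to the share among all genes.

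A negative shTLS difference was seen for 23 of 27 members in +/+ cells, for 23 in -/- cells and for 22 in the average, against 50.5%, 51.6% and 50.9% of all genes. The median member difference was -0.56 in +/+ and -0.89 in -/- cells, while the median of all genes was -0.01 and -0.02. In +/+ cells this turned on 1 array: without +/+ control 1 the median was 0.09 and 9 of 27 were negative. In -/- cells the median was -0.48 with 18 of 27 negative without -/- shTLS 1, and -0.26 without all arrays of number 1. By mouse, the median member difference was -2.12, 0.58 and -0.06 in +/+ mice 1 to 3 and -1.93, -0.66 and 0.23 in -/- mice 1 to 3. Over both genotypes 3 members were lower with shTLS in 6 of 6 mice (Cyp1a2, Cyp2c70 and Cyp3a13) and 1 was higher in all 6 (Cyp2c55), against 18.8% and 19.5% of all genes.

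Of 14 hepatocyte markers 11 had a negative averaged shTLS difference, with a median of -0.54. Their summed linear signal ran from 461300 to 746000 in +/+ control, 534600 to 565900 in +/+ shTLS, 434500 to 568900 in -/- control and 369900 to 496700 in -/- shTLS cultures, so it overlapped within each genotype. All 12 tested macrophage markers had negative averaged shTLS differences as well (median -0.92), as had 4 of 7 cholangiocyte markers (median -0.35). Among the macrophage markers, Clec4f entered the test only through the -/- control group, where it is high. Cftr, a cholangiocyte marker with a positive shTLS difference, entered only through the -/- shTLS group. The part of these lists in the differences of the P450 members was not tested.

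Non-overlapping groups were seen in +/+ cells for 2 members that were lower with shTLS and 1 that was higher, against 9.33% and 10.9% of all genes. In -/- cells they were seen for 6 that were lower and 1 that was higher, against 8.83% and 10.5% of all genes. The 6 were Cyp2c29, Cyp2c40, Cyp2c70, Cyp2d22, Cyp2r1 and Cyp2u1. When arrays were scaled to their spike-in controls instead of being set to a common distribution, the median of all genes itself shifted to -0.82 for the averaged shTLS difference. The median of the members was then -1.48, and 18 of 27 members were called lower, as were 9797 of 19018 genes.

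**Figure D3:**
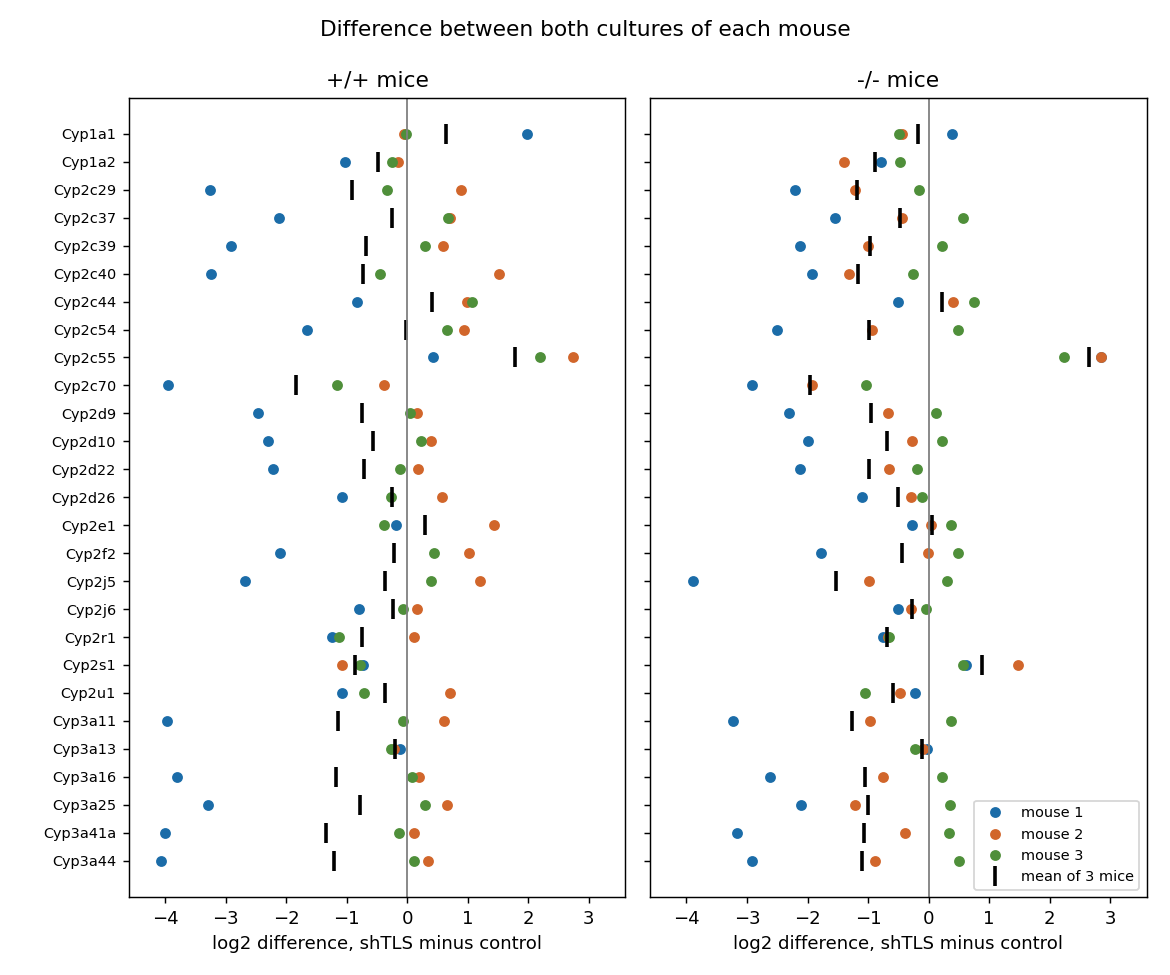
Difference in log2 value between the shTLS and the control culture of each mouse (horizontal axis) for 27 tested P450 members (rows), in +/+ mice on the left and -/- mice on the right, with a bar at the mean of 3 mice. In mice of number 1 nearly all members lie left of 0 (25 of 27 in +/+ and 24 of 27 in -/-), whereas in +/+ mouse 2 22 of 27 lie right of 0, and Cyp2c55 lies right of 0 in all 6.

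For the question of what the loss of PGC-1alpha did, no member was called in the fits without the replicate block. With the control hairpin 0 of 27 were called (0.0894% of all genes), and with shTLS 0 of 27 (0.0841% of all genes). Averaged over vectors 0 of 27 were called (0.116% of all genes). At an unadjusted p under 0.05 the counts were 1, 0 and 1 (3.25%, 2.13% and 2.76% of all genes), the gene being Cyp2s1. With the replicate block 1 member, Cyp2s1, was called in control cells (0.158% of all genes), 0 in shTLS cells (0.168%) and 1, again Cyp2s1, in the average (0.731%). The difference of -/- against +/+ was negative for 16 of 27 members with the control hairpin, for 23 with shTLS and for 21 in the average, against 46.8%, 48.2% and 47.3% of all genes. Without +/+ control 1, 7 of 27 were negative with the control hairpin, and without -/- shTLS 1, 14 of 27 with shTLS. With the control hairpin 1 member, Cyp2s1, was lower without overlap (3.82% of all genes). With shTLS Cyp2d22 and Cyp2j5 were lower (2.54%) and Cyp2j6 was higher (2.73%) without overlap. For Cyp2j6 the groups nearly touched, at 10.7508 for the highest +/+ shTLS and 10.7526 for the lowest -/- shTLS array.

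Markers of other cells were read beside the genotype comparison, and none was called in it. All 12 tested macrophage markers had a positive difference of -/- against +/+ averaged over vectors, with a median of 1.78. Of these, Clec4f, Vsig4 and C1qa entered the test only through -/- groups, where they are high. The summed linear signal of all 12 ran from 6903 to 17460 in +/+ control and from 12580 to 88990 in -/- control cultures. With shTLS it ran from 5531 to 11680 in +/+ and from 8554 to 30600 in -/- cultures. The difference was positive for 7 of 8 tested stellate cell markers (median 0.80) and for 10 of 12 endothelial markers (median 0.63). Of the latter, Clec4g and Tie1 likewise entered only through -/- groups. Cholangiocyte markers went both ways, with 3 of 7 positive and a median of -0.35. Clec4f, a Kupffer cell marker, was well above background on 2 of 3 +/+ control and 1 of 3 +/+ shTLS arrays. It was so on 3 and 2 of the -/- arrays. Vsig4, C1qa, Clec4g and Tie1 were so on 2 of 3 arrays of each +/+ group and on all -/- arrays. Vwf, Lum and Krt7 also fell short of that level on some arrays. Cftr, 1 of the 3 positive cholangiocyte markers, reached it on 1 of 3 +/+ control arrays and 2 of 3 arrays of +/+ shTLS and of -/- control. It thus entered the test only through the -/- shTLS group, where its mean is highest. The part of all these markers in the genotype differences of Cyp2s1 and the other members was not tested.

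Whether the effect of shTLS differed between genotypes was tested as the difference of both effects. The test called 0 of 27 members and 0% of all genes. At an unadjusted p under 0.05 it gave 0 members and 47 genes in all (0.247%). For Cyp2c55 the effect in -/- cells exceeded that in +/+ cells by 0.85 ± 0.76 (95% interval -0.81 to 2.52), and for Cyp2c70 the difference was -0.13 ± 1.02 (95% interval -2.38 to 2.12). Both intervals include 0 and are wider than the effects themselves.

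The sums of squares show how the spread of each member was divided. The hairpin held 74.8% for Cyp2c55, 58.0% for Cyp2c70 and 32.9% for Cyp1a2, and a median of 20.7% over the members against 17.3% over all genes. The replicate number held a median of 20.7% against 33.2%, and genotype 3.51% against 5.48%. The remainder held a median of 32.4% for the members and 14.1% for all genes. It joins variation of the hairpin difference between mice and between genotypes with the noise of single arrays, which cannot be told apart here. It was 44.7% to 57.7% for the 5 Cyp3a members that shared a profile and 10.8% for Cyp2c55. Cyp2s1 was divided between the replicate number (50.9%) and genotype (40.8%).

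**Figure D4:**
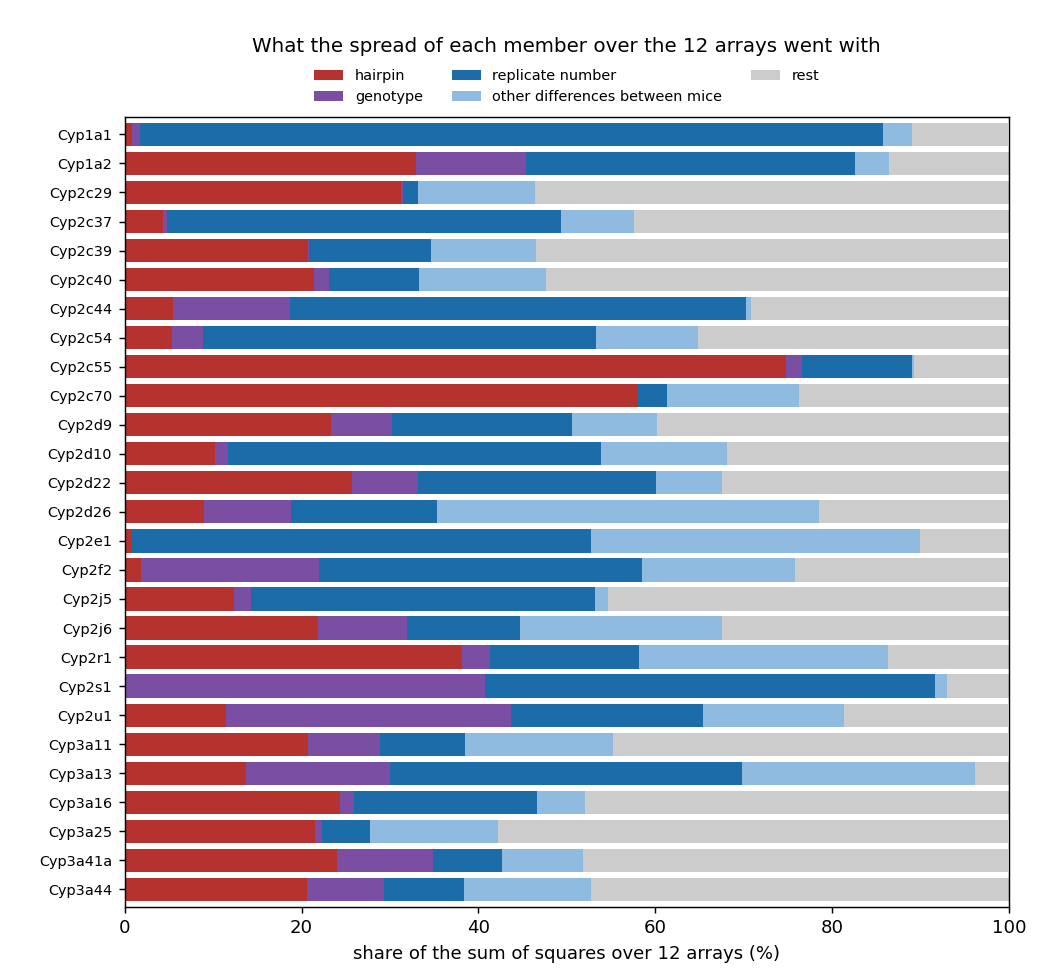
Share of each member's sum of squares over 12 arrays (horizontal axis, percent) that went with the hairpin, the genotype, the replicate number, other differences between mice, and the rest. The hairpin takes the longest stretch in Cyp2c55 (74.8%) and Cyp2c70 (58.0%), the replicate number in Cyp1a1 (84.0%), and the rest in Cyp3a11, Cyp3a16, Cyp3a25, Cyp3a41a and Cyp3a44.

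Genes that regulate or serve P450 enzymes were read from lists chosen by name. For each list, the share to set beside it is that of all genes called in the averaged shTLS comparison. It was 8.31% (5.17% higher and 3.13% lower), and 29.1% with the replicate block. Among 12 xenobiotic receptors and partners, 1 was called higher with shTLS in the average and none lower. It was Nr1i3, which encodes CAR, at 7.05, 7.10 and 6.14 in +/+ control and 9.46, 9.51 and 7.67 in +/+ shTLS cultures. In -/- mice Nr1i3 read 6.74, 6.64 and 6.99 with the control and 8.39, 8.82 and 8.41 with shTLS, so the groups did not overlap. Its averaged difference was 1.93 ± 0.33 (adjusted p = 0.00708, limma). Nr1i2, which encodes PXR, had a difference of -1.85 ± 0.60 (adjusted p = 0.0772, and 0.0132 with the replicate block). Rxrg, a retinoid X receptor gene, was at -0.96 ± 0.38 (adjusted p = 0.132, and 0.0386 with the replicate block).

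Of 8 tested genes of the aryl hydrocarbon receptor pathway, 1 was called higher with shTLS in the average and none lower. It was the repressor Ahrr, at 1.58 ± 0.43 (adjusted p = 0.0467, limma), with a probe above background on 1 of 3 arrays of each control group and on all shTLS arrays. Ahrr thus entered the test through the groups where it is high, and its difference rests in part on control values that were not well above background. The receptor gene Ahr was at -1.58 ± 0.51 (adjusted p = 0.0768, and 0.00649 with the replicate block). Among 15 liver transcription factors, 12 had a negative averaged difference, with a median of -0.44. Only Cebpa was called, at -1.06 ± 0.23 (adjusted p = 0.0228). With the replicate block Ppara passed too, at -1.08 (adjusted p = 0.0334, and 0.237 without), while Hnf4a was at -0.61 ± 0.43 (adjusted p = 0.372). Of 7 genes for electron donors and haem supply, 6 were negative, with a median of -0.26, and none was called. Por itself was at -0.26 ± 0.20 (adjusted p = 0.404, limma). With the replicate block Cyb5a (-0.84 ± 0.32) and Fech (-0.72 ± 0.30) passed, that is 2 of 7, against 29.1% of all genes. None of these lists had a called gene in a genotype comparison.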

How the data were processed

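Total RNA of 12 hepatocyte cultures was hybridized to 1-colour Agilent whole mouse genome arrays. Per the file headers, each array was read with Feature Extraction 10.1.1.1, which gave a spot's processed signal as an intensity on a linear scale and, in other columns, flags of 0 or 1. The table deposited by the authors holds log2 values, which the series' design text says were floored at 1 and quantile normalized, and each column has a median of 5.3. Values were recomputed from the array files. Flagged spots were left out, signals floored at 1, spots of a probe averaged, and log2 values quantile normalized. Correlations with the deposited table were at least 0.99997, and values of members' probes differed by at most 0.0195 log2 units.

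Probes were named through RefSeq accessions (GRCm38.p6; 24375 matched, 16799 did not). Tested were the 24963 of 41174 probes that stood well above background throughout 1 or more groups and had 2 or more values in each group. The brightest tested probe stood for a gene, which gave 19018 genes. A fit of 4 group means to 12 arrays was made with limma 3.58.1 (R 4.3.3, statmod 1.5.0; 8 residual and 2.77 prior degrees of freedom). The genotype average used a random effect of the mouse (correlation 0.583). A gene is called where its p, adjusted over all genes after Benjamini-Hochberg, is under 0.05, and standard errors and 95% intervals are those of the fit. The script was tested on simulated data. The smallest two-sided p of an exact test of 3 against 3 arrays is 0.1.

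The replicate number marks, per the labels, the mouse within a genotype and the independent assay. Arrays that shared a number had deviations from their group means that correlated at 0.232 to 0.675, and those with different numbers at -0.551 to 0.0969, so the numbers pair the samples. The number was used as a block as an alternative. Other alternatives were the mouse as a block, normexp, other scalings, other filters, the deposited table, the mean of a gene's probes, and leaving out arrays. The members and all gene lists were chosen with earlier results of these data known. Members were described in full if called in any comparison, with or without the replicate block, or if highest in signal within their subfamily. Cyp3a11 and Cyp3a41a were added after their values were seen. Motifs were searched on both strands of the 250 bases before the annotated start, 1 window per member. The level of the hairpin's target is not reported here.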

Additional observations from a re-analysis of the deposited data

How the results depend on the processing

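Each count of calls was set beside its value under every other choice. It moved in 97 of these cases and stayed about the same in 235, and the cause was not tested. Mainly counts that moved are given here. For shTLS in +/+ cells, 0 members and 236 genes were called. There were 1 and 2407 with the replicate block, 2 and 3016 with the mouse as a block, and 5 and 4277 with spike-in scaling. Genes alone came to 136 with normexp, 356 with 75th percentile scaling, 113 with a filter for all 12 arrays, and 135, 0 and 46 without the 4 arrays of number 1, 2 or 3, alternatives chosen after seeing the data. For shTLS in -/- cells, 1 member and 189 genes were called. The member was lost (0) with no filter, with normexp, without number 1, 2 or 3, and under the filter that asks for all 12 arrays, which left Cyp2c55 out. Genes came to 1215 with the replicate block, 1634 with the mouse as a block, 92 with the filter for all 12 arrays, 112 with normexp, and 0 and 31 without number 2 or 3. In the average, 2 members and 1580 genes were called. There were 4 and 6269 with the mouse as a block, 19 and 10411 with spike-in scaling, 1 and 1041 with the filter for all 12 arrays, and 1, 0 and 0 members and 682, 140 and 423 genes without number 1, 2 or 3. Members were 1 with normexp and 1 with no filter, and genes 5534 with the replicate block. For genotype, the replicate block called 1 member in control cells and 1 in the average, against 0, and 30, 32 and 139 genes in control cells, shTLS cells and the average, against 17, 16 and 22. The average had 58 genes without the mouse block. The filter for all 12 arrays left 3, 2 and 6 genes. Without number 1, 2 or 3 there were 6, 8 and 8 genes in control cells, 5, 7 and 4 in shTLS cells, and 8, 11 and 8 in the average. Leaving out 1 array at a time gave, for shTLS, 0 to 1 members and 98 to 312 genes in +/+ cells, 0 to 1 and 94 to 226 in -/- cells, and 1 to 3 and 654 to 1964 in the average. For genotype it gave 10 to 14, 10 to 20 and 15 to 24 genes, and for the difference of effects 0 to 1. The share of called genes that were higher was 85.6%, 95.8% and 62.3% in the 3 shTLS comparisons, 5.75%, 55.2% and 5.90% with spike-in scaling, and 76.2% in the average with 75th percentile scaling. Differences near 0 changed sign in the average over genotypes. Cyp1a1 was at -0.64 with spike-in scaling and -0.25 without number 1, Cyp2e1 at -0.63 with spike-in scaling and -0.12 without number 2, and Cyp2f2 at 0.48 without number 1. Cyp2s1 was at -0.0271 with normexp, -0.88 with spike-in scaling and -0.0849 without number 2. Without 1 array the range was -0.26 to 0.71 for Cyp1a1, -0.21 to 0.63 for Cyp2e1, -0.71 to 0.24 for Cyp2f2 and -0.47 to 0.52 for Cyp2s1. Across all alternatives the averaged Cyp2c55 rise kept its direction, with adjusted p between 0.000811 and 0.166 (limma), and the averaged Cyp2c70 fall did too, with 0.00414 to 0.243. The number of arrays, 3 per group, limits the precision. Apart from the calls named here and beside the results, the replicate block changed no call of a described member. With the mouse as a block Cyp2r1 in the average and Cyp2s1 in +/+ cells were added.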

Other observations

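The growth hormone list, which holds regulators of sex-biased P450 genes, had 1 of 10 genes called in the averaged shTLS comparison, against 8.31% of all genes. It was Hsd3b5, a steroid dehydrogenase known for its male bias, which was lower, with a difference of -3.71 ± 0.91 (SE; adjusted p = 0.0331, limma with Benjamini-Hochberg adjustment). Its probe was above background on all control arrays, 1 of 3 +/+ shTLS arrays and 2 of 3 -/- shTLS arrays. Hsd3b5 thus entered the test through the control groups, where it is high, and its difference rests in part on shTLS values near the floor. With the replicate number as a block 2 genes were higher and 3 lower in all, against 15.4% and 13.7% of all genes. Among them Cux2, a factor known for its female bias, was at 2.18 ± 0.61 (adjusted p = 0.00582 with the block and 0.0538 without), and Stat5a at -0.96 ± 0.29 (0.00871 and 0.0661). The Cux2 probe was above background on 1 of 3 arrays of each control group and on all shTLS arrays, so it entered the test through the groups where it is high, and its difference rests in part on control values near the floor. In the list of interleukin 6 and acute phase genes, 9 of 13 were tested. In the average 1 was called higher with shTLS, against 5.17% of all genes. It was Il6, at 3.22 ± 0.46 (adjusted p = 0.00262). Nos2, Tnf, Il1b and Nfkb1 did not enter the test.

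Among 14 tested hepatocyte markers only Ass1, a urea cycle enzyme, was called lower with shTLS in the average, against 3.13% of all genes. It was at -0.65 ± 0.17 (adjusted p = 0.0422, limma). Albumin (Alb) was at -0.06 ± 0.17 (adjusted p = 0.838). With the replicate block 3 of 12 macrophage markers (Clec4f, Marco and Cd5l) and 3 of 7 cholangiocyte markers (Krt7, Krt19 and Spp1) were called lower, against 13.7% of all genes in that fit. Clec4f entered the test only through the -/- control group, where it is high.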
